A study of Mus musculus with 6 samples.

Results

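The clade A serpins examined here are 10 genes of mouse liver: Serpina1a, Serpina1b, Serpina1c, Serpina1d and Serpina1e, Serpina3c, Serpina3k, Serpina3m and Serpina3n, and Serpina6. They were chosen by name, out of 35540 gene symbols in the expression table, with earlier results of these data known. All 10 passed the minimum mean level for testing, 0.1 TPM. TPM (transcripts relative to the total of the library) is an abundance corrected for transcript length, so that levels of different genes can be compared. Each gene was taken singly, and the Serpina1 and Serpina3 paralogs were also summed.

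The livers of 3 mice of genotype Surf4(fl/fl) Alb-Cre+ were compared with those of 3 littermates, Surf4(fl/fl) Alb-Cre-, by RNA sequencing of 1 library per mouse. All 6 mice were homozygous for a Surf4 allele with loxP sites around exon 2, on the C57BL/6 J background, were kept with free access to chow, and no treatment is given in the labels. The study's methods describe an overnight fast before samples were taken. The genotypes differed in an Alb-Cre transgene, whose albumin promoter is active in hepatocytes. The study proposes that the unexcised Surf4 mRNA left in Alb-Cre+ livers comes from other cell types of the liver. Replicate 2 of either genotype was the female mouse and the others were males, and their age was not given in the sources used here.

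Serpins are protease inhibitors that offer an exposed reactive centre loop to their target, are cut within it and trap the enzyme as they change shape. Human liver secretes alpha-1-antitrypsin, the inhibitor of neutrophil elastase, from a single SERPINA1 gene, and alpha-1-antichymotrypsin, an inhibitor of cathepsin G, from a single SERPINA3 gene. In mice both loci have multiplied into families of paralogs whose members differ most in the loop. Serpina6 encodes corticosteroid-binding globulin, a serpin that inhibits no protease and carries glucocorticoids in plasma. All are secretory proteins that leave the hepatocyte through the endoplasmic reticulum, where SURF4 acts as a cargo receptor. The comparison of genotypes asks whether their mRNA differs when hepatocytes lack SURF4.

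In the GRCm38 reference the 10 genes lie in one cluster of 28 annotated serpin genes and pseudogenes on chromosome 12, from Serpina10 to Serpina3n (chr12:103614786-104414329). Serpina6 (chr12:103646630-103657212) is the second gene of the cluster, and the order of the Serpina1 members that follow is Serpina1b, Serpina1d, Serpina1a, Serpina1c and Serpina1e, all on the minus strand. Serpina1e, the last of them, spans chr12:103946931-103958975. Serpina3c (chr12:104146382-104153870) is also on the minus strand, while Serpina3k (chr12:104338486-104346144), Serpina3m and Serpina3n (chr12:104406729-104414329) are on the plus strand. The annotation of Serpina3m overlaps that of Serpina3k through a single long transcript, which was at 0 TPM in every mouse. Its other transcript starts at position 104387164, beyond Serpina3k.

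The 5 Serpina1 members have coding sequences of equal length (1242 bases with the stop codon) that align without a gap, and any pair of them is between 96.3% and 98.5% identical. They differ from one another at 86 positions, and the stretch of 60 bases with most differences holds 18 of these, against a median of 4 per stretch of that length. This stretch is shown because the differences between the paralogs are densest in it, although most of the 86 lie outside it. All of its 60 bases fall in the last exon (exon 5) within the codons of the reactive centre loop. The sequences are given from 5′ to 3′ on the minus strand, with positions that are not the same in all 5 genes in capitals. They run from Serpina1a (chr12:103853757-103853816) and Serpina1b (chr12:103728324-103728383) through Serpina1c (chr12:103895094-103895153) and Serpina1d (chr12:103763762-103763821) to Serpina1e (chr12:103947100-103947159):
Serpina1a: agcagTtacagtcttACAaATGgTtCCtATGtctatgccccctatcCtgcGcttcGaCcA
Serpina1b: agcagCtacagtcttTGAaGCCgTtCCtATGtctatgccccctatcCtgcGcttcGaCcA
Serpina1c: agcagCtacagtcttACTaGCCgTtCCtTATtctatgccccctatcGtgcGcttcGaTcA
Serpina1d: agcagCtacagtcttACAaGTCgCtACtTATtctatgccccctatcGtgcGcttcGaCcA
Serpina1e: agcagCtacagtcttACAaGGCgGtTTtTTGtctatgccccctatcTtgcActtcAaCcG

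Within this stretch Serpina1e differs from the other 4 members at between 10 and 12 bases. The other pairs differ at between 5 and 10 bases. Serpina1a and Serpina1c are the closest pair outside it, with 9 further differences in the rest of the coding sequence, where all other pairs have between 31 and 36.

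The Serpina3 members are less alike, with coding sequences between 82.8% and 91.5% identical, and Serpina3k and Serpina3m are the closest pair. Their loop codons are shown for the 3 members with more than 100 TPM, to set them beside those of Serpina1. Of the 90 aligned positions 48 are the same in all of these, and the others are in capitals. The stretches lie in exon 5 on the plus strand, in Serpina3k at chr12:104345269-104345352, in Serpina3m at chr12:104393769-104393858 and in Serpina3n at chr12:104413448-104413537:
Serpina3k: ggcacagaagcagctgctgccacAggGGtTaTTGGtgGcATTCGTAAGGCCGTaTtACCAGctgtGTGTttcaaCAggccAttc
Serpina3m: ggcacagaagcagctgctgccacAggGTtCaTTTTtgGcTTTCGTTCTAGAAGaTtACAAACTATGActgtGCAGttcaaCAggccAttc
Serpina3n: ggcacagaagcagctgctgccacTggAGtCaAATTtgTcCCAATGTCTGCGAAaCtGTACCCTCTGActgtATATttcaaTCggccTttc

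The promoters of the Serpina1 members are also nearly alike in the stretch compared here. RefSeq promoter windows (GRCm38.p6, 250 bases before to 50 after the annotated start) were found for 7 of the 10 members. The Serpina1 windows were aligned on a run of 6 bases that each holds once on the sense strand. The stretches from 90 bases before to 10 after this run are 106 bases long, align without a gap and are the same in all 5 genes at 96 positions. They are shown because the sex difference described below separates genes that are nearly the same in this stretch. The rest of the windows was not compared. Bases that differ from the one most of the 5 genes carry are in capitals. The minus strand is shown, for Serpina1a at chr12:103863625-103863730, Serpina1b at chr12:103738200-103738305, Serpina1c at chr12:103904962-103905067, Serpina1d at chr12:103773634-103773739 and Serpina1e at chr12:103956960-103957065:
Serpina1a: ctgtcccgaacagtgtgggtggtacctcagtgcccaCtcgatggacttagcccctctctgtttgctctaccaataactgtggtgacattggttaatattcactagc
Serpina1b: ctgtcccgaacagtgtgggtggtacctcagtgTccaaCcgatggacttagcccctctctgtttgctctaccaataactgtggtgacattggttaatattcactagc
Serpina1c: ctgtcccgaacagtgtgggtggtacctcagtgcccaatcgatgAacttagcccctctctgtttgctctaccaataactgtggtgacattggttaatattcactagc
Serpina1d: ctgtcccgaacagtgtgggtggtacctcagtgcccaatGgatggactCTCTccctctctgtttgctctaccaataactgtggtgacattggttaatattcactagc
Serpina1e: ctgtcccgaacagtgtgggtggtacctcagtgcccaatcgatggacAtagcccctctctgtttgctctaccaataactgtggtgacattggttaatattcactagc

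The stretch of Serpina1e differs from the commonest base at 1 position, that of Serpina1d at 5. All 5 stretches lie upstream of the RefSeq starts, but not at the same distance. The run of 6 bases begins 21, 26, 27 and 16 bases before the start in Serpina1a, Serpina1b, Serpina1c and Serpina1d, and 78 bases before it in Serpina1e. In the GENCODE annotation those of Serpina1b and Serpina1e fall in introns of longer transcripts of the same gene, and that of Serpina1d in an intron of a long Serpina1b transcript. The letters TTCNNNGAA of the STAT binding site were searched on both strands and found in none of the 7 members' windows, and in 8.3% of all 32851 promoter windows of the table.

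Because the paralogs are so alike, the sequence that can assign a read to a single gene is limited. Of the 31-base stretches of its most abundant transcript, Serpina1a has 10% that occur in no other annotated gene and Serpina1c has 14.2%, and 77.4% of the stretches of Serpina1a are also found in Serpina1c. The shares are larger in Serpina1d (35.3%), Serpina1b (35.6%) and Serpina1e (43.6%). In the Serpina3 members between 65% (Serpina3m) and 83.1% (Serpina3c) of the stretches are unique, and in Serpina6 all are. Levels of single Serpina1 paralogs, of Serpina1a and Serpina1c most of all, therefore depend on how the quantifier divided shared reads, while the Serpina1 sum depends on it less. Stretches of all 5 Serpina1 members also occur in Gm8893, which had between 10.02 and 49.6 TPM, and in B430119L08Rik, whose level is not given here. Between 39.1% (Serpina1e) and 67.9% (Serpina1a) of the stretches of a member occur in at least 1 of these 2 genes.

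**Figure D1:**
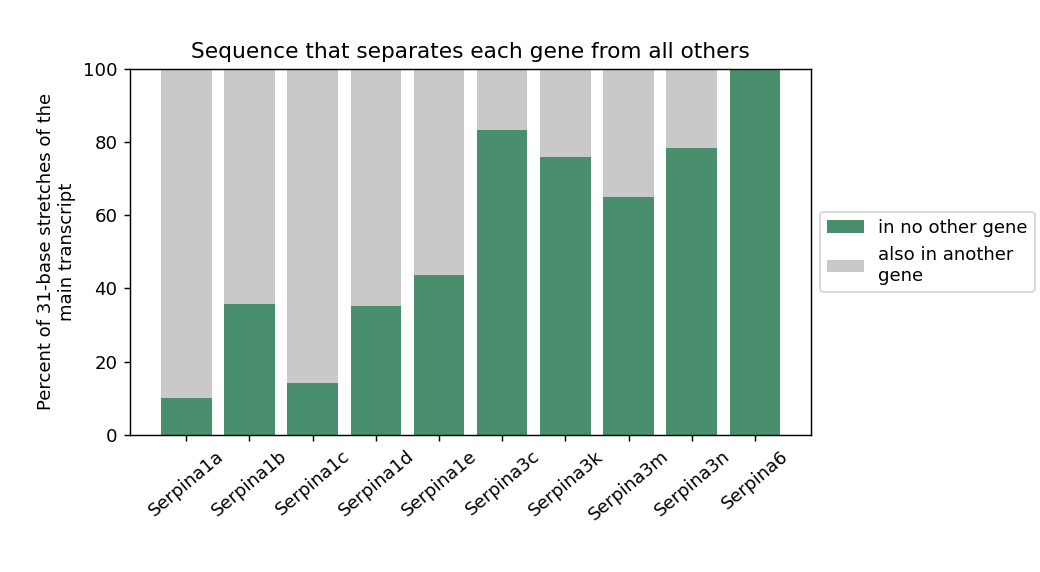
Percent of the 31-base stretches of each gene's most abundant transcript that occur in no other annotated gene (green) or also in another gene (grey). The Serpina1 members have between 10% and 43.6% unique stretches, the Serpina3 members between 65% and 83.1%, and Serpina6 has only unique ones.

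Surf4, the targeted gene, had 92.5, 94.5 and 92.5 TPM in Alb-Cre- replicates 1 to 3 and 59.01, 71.8 and 54.3 TPM in the Alb-Cre+ mice. The genotypes did not overlap, and the difference was -0.60 on the log2 scale (SE 0.13; n = 3 per genotype). The summed TPM of 4 Y-linked genes matched the labelled sex of 6 of 6 mice. Hepatocyte markers (7 genes, among them Alb, Ttr and Apoa1) summed to between 64270 and 91466 TPM in males and to 102448 and 94696 TPM in the Alb-Cre- and Alb-Cre+ female.

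The 2 female livers stood apart from the male ones in other ways than these genes. On the TPM scale 76.7% of all 14189 genes tested were lower in males, with a median difference of -0.26 (male minus female, log2), and scaling by median of ratios moved that median by 0.21 to -0.05. The summed TPM of Kupffer cell and macrophage markers (8 genes) was 481 and 518 in the female mice and between 132 and 203 in the males. Neutrophil markers (6 genes) summed to 146 and 299 TPM against 23.6 to 53.8, stellate cell markers (8 genes) to 253 and 264 TPM against 104 to 194, endothelial markers (7 genes) to 174 and 200.1 TPM against 82.4 to 139.7, and T and B cell markers (6 genes) to between 5.33 and 6.76 TPM against 2.51 to 3.97. With the hepatocyte list, 6 lists were thus higher in both females than in any male. Erythroid markers (5 genes) lay the other way, at 102.6 to 131 TPM in females and 172 to 408 TPM in males, and cholangiocyte markers (5 genes) overlapped, at 36.2 to 39.2 TPM in females and 15 to 59.2 TPM in males. No marker of these lists was below 0.1 TPM in every mouse, and the part of these cells in the sex differences described here was not tested. In RNA from whole tissue, fewer cells of a type and less RNA per cell cannot be told apart. Of the 6 exocrine pancreas markers in the table, 5 (Cpa1, Prss2, Pnlip, Cel and Ctrb1) were below 0.1 TPM in every mouse, and the list's sum, nearly all of it from Cela1, was 16.2 to 16.5 TPM in females and 19.8 to 21.9 TPM in males.

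Together the 10 genes made up between 2.12% and 4.48% of all TPM in a library, most of it from Serpina1. The Serpina1 sum was 31486, 18359.8 and 36688 TPM in Alb-Cre- replicates 1 to 3 and 29292, 16384 and 29016 TPM in Alb-Cre+ replicates 1 to 3. The Serpina3 sum was 7976, 4089.7 and 8083 TPM in the Alb-Cre- mice and 7405, 4758 and 7391 TPM in the Alb-Cre+ mice. In both sums the female mouse of each genotype, replicate 2, was the lowest, and the sexes did not overlap while the genotypes did.

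Serpina1b had the highest level of the 10 genes in both female mice, whereas in males the highest was Serpina1c in replicate 1 and Serpina1e in replicate 3 of each genotype. Among all genes Serpina1a, Serpina1b, Serpina1c and Serpina1d ranked between 16th and 58th by TPM in every mouse. Serpina3k, known as contrapsin, was the only Serpina3 member of that size, at between 3122 and 7269 TPM. Serpina3n and Serpina3m followed at between 283 and 674 TPM, and neither was above the other in all mice. Serpina6 and, below it, Serpina3c were the lowest in every mouse, with means of 45.1 and 7.6 TPM. Serpina1b was above Serpina1a, and Serpina1d was below Serpina1a, Serpina1b, Serpina1c and Serpina3k, in 6 of 6 mice, whereas Serpina1b, Serpina1c and Serpina3k changed places between mice.

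**Figure D2:**
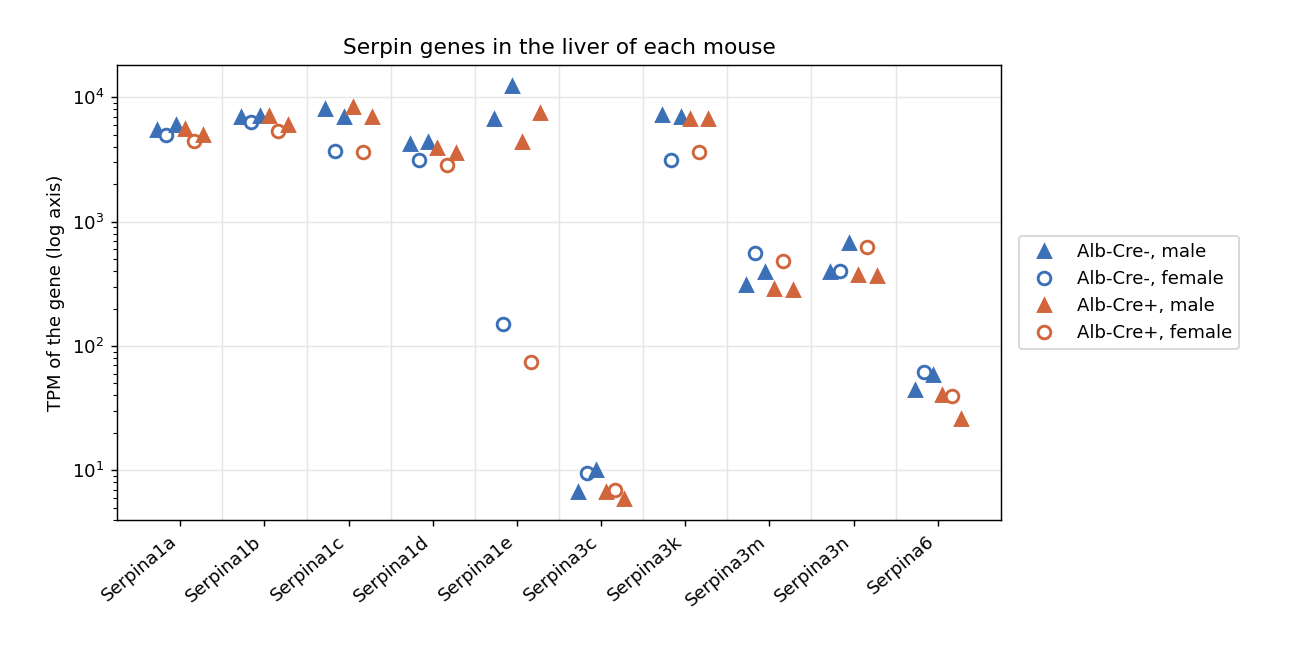
TPM of each gene (log axis) in each of the 6 mice, by genotype (colour) and sex (triangles male, circles female). Serpina1e lies between 4377 and 12428 TPM in the 4 males and at 73.8 and 151 TPM in the 2 females, whereas Serpina1a and Serpina1b lie between 4453 and 7043 TPM in every mouse.

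Serpina1e was the member that separated the sexes most. It had 6699 and 12428 TPM in Alb-Cre- males and 4377 and 7459 TPM in Alb-Cre+ males, and 151 and 73.8 TPM in the Alb-Cre- and Alb-Cre+ female. The mean of the males was 63.1 times the female value in Alb-Cre- mice and 80.2 times in Alb-Cre+ mice. With genotype in the fit, the difference was 6.09 (male minus female, log2; SE 0.31; adjusted p = 0.00076, limma over all genes tested). It was the only member past an adjusted p of 0.01, a threshold that 0.514% of all genes passed, and 0.183% with males higher. Since each genotype has a single female mouse, the call rests on both of them: without the Alb-Cre- female the difference was 6.27 with an adjusted p of 0.0642, and without the Alb-Cre+ female it was 5.91 with an adjusted p of 0.0775 (limma). The female mice are also the replicate 2 mice, and sex and replicate number cannot be told apart. Of the 981 genes with mean levels of 100 TPM or more, the only ones with a male excess as large were Mup1, Mup7, Mup12 and Mup14, which encode major urinary proteins.

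Both annotated transcripts of Serpina1e were lower in the females. The shorter transcript of the gene, ENSMUST00000085054, held most of its TPM. The longer one, ENSMUST00000122229, held between 13% and 14.3% in males and 16.4% and 16.8% in the females. Within males the level of Serpina1e was also the most variable of the Serpina1 members, with the higher male at 1.86 times the lower in Alb-Cre- and 1.7 times in Alb-Cre+ mice. In both genotypes replicate 3 was the higher male.

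Serpina1c and Serpina3k had higher values in males to a lesser extent. Serpina1c had 8106 and 6896 TPM in Alb-Cre- males and 8425 and 7017 TPM in Alb-Cre+ males, against 3696 and 3611 TPM in the females. The difference was 1.05 (SE 0.17; adjusted p = 0.0218, limma). Serpina3k had 7269 and 7006 TPM in Alb-Cre- males and 6738 and 6736 TPM in Alb-Cre+ males, against 3122 and 3644 TPM in the females. The difference was 1.04 (SE 0.16; adjusted p = 0.0191, limma). Neither passed 0.01, and both lay under an adjusted p of 0.05, as 0.86% of all genes did with males higher. Without the Alb-Cre- female the adjusted p was 0.142 for Serpina1c and 0.153 for Serpina3k, without the Alb-Cre+ female it was 0.287 and 0.226, and without Alb-Cre- replicate 1 it was 0.056 and 0.0507 (limma). With no filter on low values it was 0.0808 and 0.0733 (limma).

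Serpina3m had higher values in the females and did not pass 0.01. It had 310.4 and 394 TPM in Alb-Cre- males and 289.7 and 283 TPM in Alb-Cre+ males, against 555 and 481 TPM in the females. The difference was -0.71 (SE 0.13; adjusted p = 0.0302, limma), and 6.32% of all genes had an adjusted p under 0.05 with females higher. With median of ratios scaling it was -0.49, with an adjusted p of 0.0948, and with 1 mouse left out the adjusted p ran from 0.032 to 0.289 (limma), under 0.05 only without Alb-Cre- replicate 3. It was 0.0671 with no filter on low values and 0.0653 without the trend (limma). Serpina3k and Serpina3m, the closest pair of Serpina3 members by coding sequence, thus lay on opposite sides of 0, also relative to the median of all genes, at 1.3 and -0.45 from it.

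Serpina1d had between 3549 and 4339.6 TPM in males and 3122 and 2836 TPM in females, a difference of 0.42 (SE 0.14; adjusted p = 0.109, limma). With these, 4 of the 10 members were under an adjusted p of 0.05, as 7.18% of all genes were. The sexes did not overlap for 5 members, as for 41.6% of all genes. These were 4 members with males higher (Serpina1c, Serpina1d, Serpina1e and Serpina3k), against 5% of all genes, and 1 member with females higher (Serpina3m), against 36.6%. Serpina1a and Serpina1b differed by 0.22 (SE 0.15) and 0.20 (SE 0.16), with overlapping sexes. Serpina3c, Serpina3n and Serpina6 had differences of -0.18 (SE 0.20), -0.21 (SE 0.30) and -0.27 (SE 0.20). With median of ratios scaling these became 0.04, 0.01 and -0.06. Those of Serpina1a, Serpina1b and Serpina1d became 0.43 (SE 0.17), 0.42 (SE 0.17) and 0.64 (SE 0.14). On the TPM scale the median over the 10 members was 0.21, against -0.26 over all genes tested.

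**Figure D3:**
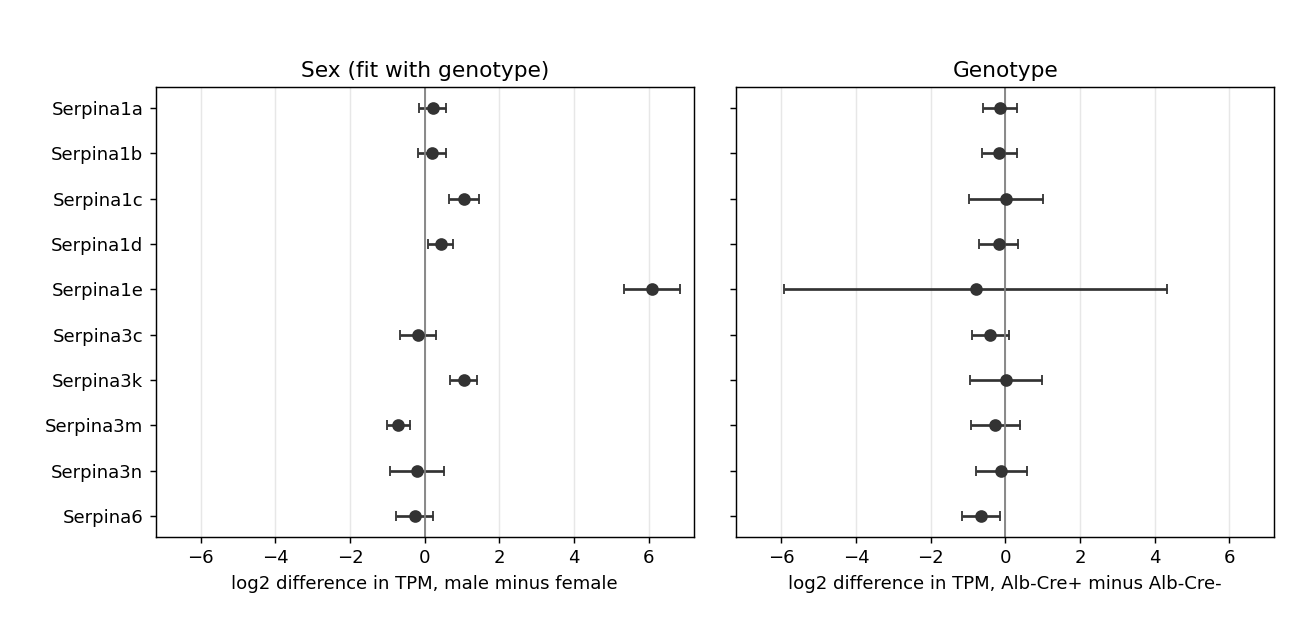
Log2 difference in TPM of each gene, with 95% confidence intervals from limma. Left, between the sexes (male minus female, fitted with genotype). Right, between the genotypes (Alb-Cre+ minus Alb-Cre-, genotype alone in the fit). Serpina1e stands at 6.09 between the sexes, Serpina1c and Serpina3k at 1.05 and 1.04 and Serpina3m at -0.71. In the genotype fit drawn, the interval of Serpina6 is the only one that leaves out 0 and that of Serpina1e is the widest. With the replicate number as a block (not drawn) the interval of Serpina1e, -1.11 to -0.48, also left out 0.

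Shares within a family do not depend on how a library is scaled. Serpina1e held 21.3%, 33.9%, 14.9% and 25.7% of the Serpina1 sum in the male mice (Alb-Cre- replicates 1 and 3, Alb-Cre+ replicates 1 and 3) and 0.825% and 0.45% in the Alb-Cre- and Alb-Cre+ females. With Serpina1e left out, the share of Serpina1c was between 28.4% and 33.8% in males and 20.3% and 22.1% in females, while that of Serpina1d was between 15.7% and 17.9% in males and 17.1% and 17.4% in females. The sum of the 4 members without Serpina1e was between 21557 and 24915 TPM in males and 18208 and 16310 TPM in females. Since 56.4% of the 31-base stretches of Serpina1e also occur in other genes, this sum too depends on how shared reads were divided. Serpina3k held between 86.7% and 91.1% of the Serpina3 sum in males, 76.3% in the Alb-Cre- female and 76.6% in the Alb-Cre+ female. Serpina3m held between 3.83% and 4.87% in males and 13.6% and 10.1% in females.

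**Figure D4:**
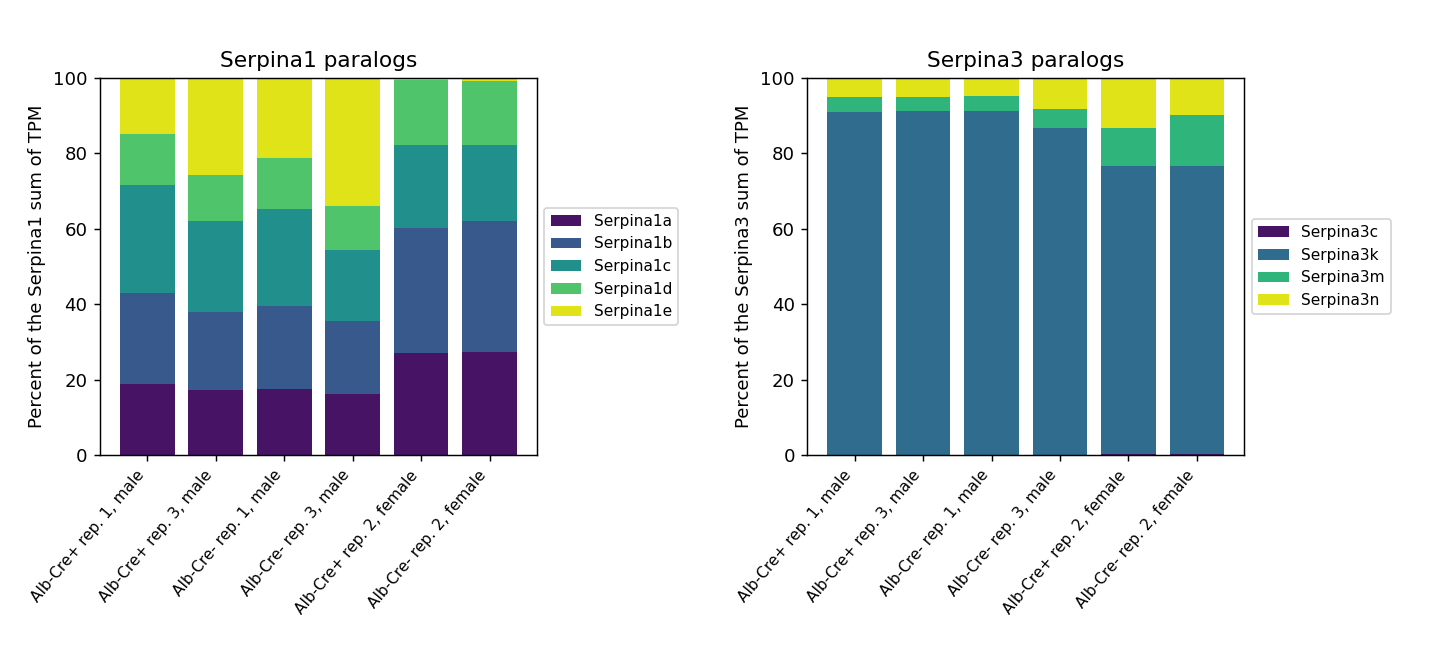
Percent of the Serpina1 sum (left) and of the Serpina3 sum (right) of TPM held by each paralog, with 1 bar per mouse, males first. Serpina1e takes between 14.9% and 33.9% of the Serpina1 sum in males and under 1% in females, and Serpina3k falls from between 86.7% and 91.1% of the Serpina3 sum in males to 76.3% and 76.6% in females.

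No member passed the test between the genotypes. The study's own comparison, made with DESeq2, reports genes past a false discovery rate of 0.01, while here TPM were tested with limma. At an adjusted p of 0.01, and also at 0.05, 0 of 14189 genes (0%) were called by limma, and the adjusted p of every member, and that of Surf4 itself, was 0.9999. At an unadjusted p under 0.05, 250 genes (1.76%) were found, among which Serpina6 was the only member. With the replicate number as a block there were 666 (4.69%), among which Serpina1e and Serpina6 were the members. In simulated data of this size 4 of 200 genes changed by 1 on the log2 scale were called in this comparison, and 133 of 200 changed by 2. The simulated spread left out the sex difference, which the fit of genotype alone keeps in the real data. These counts are thus too high for genes that differ by sex, and differences of the size seen here were mostly not detectable. The values of 8 members were lower in Alb-Cre+ mice and those of 2 were higher (Serpina1c and Serpina3k, both by 0.02). Of all genes tested 50.4% were lower and 49.6% higher. The median over the members was -0.17, against -0.0017 over all genes tested.

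Serpina6, the glucocorticoid carrier, had 44.5, 61.7 and 58.4 TPM in Alb-Cre- replicates 1 to 3 and 40.7, 39.4 and 26.1 TPM in Alb-Cre+ replicates 1 to 3. It was the only member whose genotypes did not overlap, which held for 4.9% of all genes and, with Alb-Cre+ mice lower, for 2.71%. The difference was -0.65 (Alb-Cre+ minus Alb-Cre-, log2; SE 0.22; 95% confidence interval -1.15 to -0.14; unadjusted p = 0.0197, adjusted p = 0.9999, limma). Between mice of the same replicate number it was -0.13, -0.65 and -1.16. The two-sided exact permutation test gave p = 0.1, the smallest that 3 against 3 mice allow.

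Serpina1e was lower in the Alb-Cre+ mouse of each replicate number, by 0.61, 1.04 and 0.74 on the log2 scale, but its spread over the sexes left the difference of -0.80 with an SE of 2.18 and a 95% confidence interval from -5.94 to 4.34. Serpina1d, Serpina1e, Serpina3m and Serpina6 were lower in Alb-Cre+ mice in 3 of 3 same-numbered pairs, as 12.4% of all genes were, and no member was higher in 3 of 3 pairs, as 11.5% of all genes were. For Serpina1a and Serpina1b the 95% confidence intervals of the fit of genotype alone ran from -0.59 to 0.31 and from -0.63 to 0.32. The Serpina1 sum differed by -0.20 and the Serpina3 sum by -0.01. Leaving out the Alb-Cre- female turned these into -0.50 and -0.33, and leaving out the Alb-Cre+ female into 0.07 and 0.21.

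Serpina3n, an inhibitor of granzyme B and cathepsin G that is known to rise in the acute phase, had 390.2, 403 and 674 TPM in Alb-Cre- replicates 1 to 3 and 371, 627 and 366 TPM in Alb-Cre+ replicates 1 to 3. Its highest values were in a male and in a female mouse of different genotypes. The 2 mice with the highest Serpina3n were also the highest of the 6 in Saa2, an acute phase gene, with 5172 TPM in Alb-Cre- replicate 3 and 5886 TPM in Alb-Cre+ replicate 2. Saa2 was at 1664 TPM in the Alb-Cre- female and between 18.4 and 42.2 TPM in the other males. Not all genes of the acute phase list had this order. Orm3 was lowest of all mice in Alb-Cre- replicate 3 (5.14 TPM). Orm2 was highest in the females (1288 and 2329 TPM, against 119.8 TPM in Alb-Cre- replicate 3). Hamp was highest in the Alb-Cre- female (6024 TPM, against 3309 TPM in Alb-Cre- replicate 3). The genotype difference of Serpina3n was -0.07 and -0.88 in the male pairs and 0.64 in the female pair, and the interaction of genotype and sex was -1.11 (SE 0.50; unadjusted p = 0.0858, adjusted p = 0.775, limma). No gene passed the interaction at an adjusted p of 0.01, with 862 genes (6.08%) at an unadjusted p under 0.05.

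Other serpins were examined as a list of the 59 gene symbols that start with Serpin and are not members, of which 24 were tested. Between genotypes 0 were called, with 11 higher and 13 lower. Between sexes 1 passed an adjusted p of 0.01, Serpina7, the X-linked gene of thyroxine-binding globulin. It had 35.1 and 92.7 TPM in the females and between 3.25 and 5.13 TPM in males, a difference of -3.81 (SE 0.24; adjusted p = 0.00158, limma). At an adjusted p of 0.05 a further 4 were higher in females and 2 in males. No serpin outside the members reached the mean of the lowest Serpina1 member. The highest outside clade A were Serpinc1 (antithrombin), at between 2256 and 2554 TPM, Serpinf2 (alpha-2-antiplasmin) and Serping1 (C1 inhibitor), with sex differences of 0.08 (SE 0.13), 0.27 (SE 0.16) and -0.06 (SE 0.14).

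Within the cluster, sex differences of both signs lay close together. Serpina11, the neighbour of Serpina1e, had between 50.8 and 60.9 TPM in all mice and a sex difference of -0.06 (SE 0.10). The pseudogene Serpina4-ps1 had between 0.843 and 3.34 TPM in males and 0.0674 and 0.0977 TPM in females, a difference of 3.55 (SE 0.43; adjusted p = 0.0126, limma). Serpina3f, between Serpina3c and Serpina3k, was at between 0.913 and 2.12 TPM in males and 6.97 and 7.16 TPM in females, a difference of -2.15 (SE 0.29; adjusted p = 0.0156, limma). None of these passed 0.01.

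**Figure D5:**
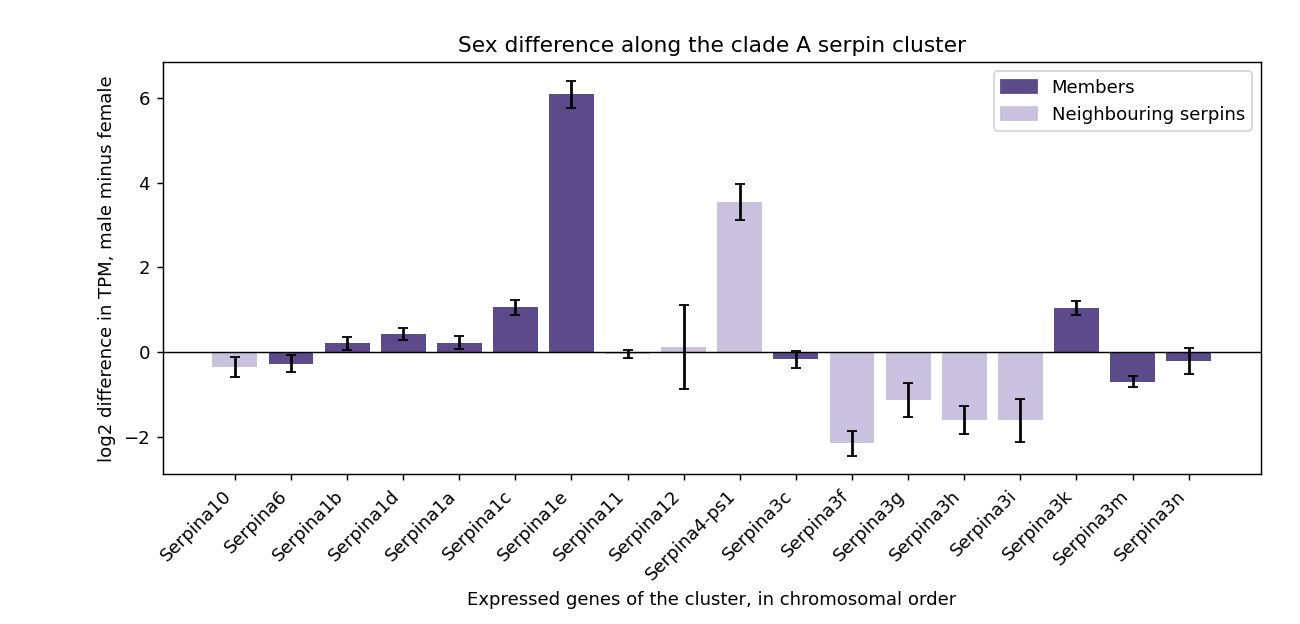
Log2 difference in TPM (male minus female) of the tested genes of the chromosome 12 serpin cluster in chromosomal order, with members dark and neighbours light, and error bars of 1 SE from limma. Serpina1e stands at 6.09 beside Serpina11 at -0.06, and the Serpina3 genes run from -2.15 (Serpina3f) to 1.04 (Serpina3k).

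The same comparison of sexes was made for lists of genes whose sex bias or regulation is known. Of 12 tested male-biased liver genes, 12 were higher in males and 6 passed an adjusted p of 0.01, with a median difference of 4.18. Among these were Slco1a1, an organic anion transporter (6.25, SE 0.35), Mup20 (5.18, SE 0.37) and Cyp7b1, a hydroxylase of oxysterols (2.60, SE 0.22). Of 12 tested female-biased genes, 12 were higher in females and 5 passed, with a median of -5.94, among them Sult2a1, a sulfotransferase of steroids and bile acids (-12.74, SE 0.42). Serpina1e thus lay between Mup20 and Slco1a1. Of 10 growth hormone signalling genes 4 were higher in males and 6 in females, and 0 passed, with Igf1 under an adjusted p of 0.05. Igfals, which binds circulating IGF1, had the largest male excess in that list (0.89, SE 0.25; adjusted p = 0.0769, limma).

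Of 20 tested acute phase genes 20 had higher values in females, the direction of Serpina3m and of 76.7% of all genes tested, with a median of -1.51 against -0.26 over all genes. Orm3, an orosomucoid, passed an adjusted p of 0.01 (-2.96, SE 0.30; adjusted p = 0.00827, limma), as 0.331% of all genes did with females higher, while 4 lay under 0.05. Of 13 IL-6 and STAT signalling genes 12 were higher in females, again the direction of 76.7% of all genes, with a median of -0.68, and 0 passed. Of 9 tested genes of glucocorticoid action, to which the carrier Serpina6 is linked, 4 were higher in males and 5 in females, and 0 passed, with Pck1, a gluconeogenic enzyme, under an adjusted p of 0.05 (1.18, SE 0.26; adjusted p = 0.0467, limma). Of 8 tested serine proteases that clade A serpins are known to inhibit, 5 were higher in males and 3 in females, and 0 passed.

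Between genotypes no gene of these lists passed. Of all genes tested 50.4% were lower and 49.6% higher in Alb-Cre+ mice. The median furthest from 0 was that of the male-biased genes, at 0.66, with 11 of 12 higher in Alb-Cre+ mice, against a difference of -0.80 for Serpina1e. In the acute phase list 15 of 20 genes were lower in Alb-Cre+ mice, with a median of -0.15. In the list of 18 genes of folding, export and disposal of secreted glycoproteins 10 were lower and 8 higher, with a median of -0.01. The lower ones include Surf4 itself (-0.60), the gene targeted by the design. The genotypes did not overlap for 3 genes of the list, among them Surf4 and Ero1b, as for 4.9% of all genes. The largest rise in the list was in Ero1b, an oxidase of the endoplasmic reticulum (0.69, adjusted p = 0.9999, limma). Ero1b was at 14.7, 9.84 and 12.7 TPM in the Alb-Cre- mice and 22.8, 19 and 18.3 TPM in the Alb-Cre+ mice. For glucocorticoid action, 4 genes were higher and 5 lower, the largest fall being Sgk1 (-0.42).

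The genes whose level followed each sum most closely over the 6 mice were sought among 5140 genes with mean levels of 10 TPM or more. For the Serpina1 sum these were Ccl27a (Pearson r = 0.992), Akr7a5 (0.992) and Gstm6 (0.988). For the Serpina3 sum they were Aldh7a1 (0.999), Igf1 (0.989) and Ecsit (0.987). For Serpina6 they were Nedd8 (0.99), Gatad1 (0.978) and Dpm3 (0.977). With 6 mice, in which the females set much of the range of both sums, 100 genes had an r of at least 0.9 with the Serpina1 sum, 127 with the Serpina3 sum and 84 with Serpina6, so that these values are a description. Aldh7a1 had between 302 and 336 TPM in males and 175 and 203 TPM in females.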

How the data were processed

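Liver RNA-seq of 6 mice was analysed. The authors deposited TPM per transcript and mouse, in a table named for Salmon and adding up to 1000000 per mouse, while the study's methods name STAR, RSEM and GRCm38. A deposited table of the authors' DESeq2 comparison (mean counts, fold changes, p-values) was not used. Since TPM do not give numbers of reads, the depth of the libraries is unknown and counting error could not be given. TPM were summed per gene symbol, leaving out 163 of 116748 transcripts without a symbol.

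For the 14189 genes with mean levels of 0.1 TPM or more, log2(TPM + 0.1) was compared, a scale that understates changes of low genes, with limma 3.58.1 in R 4.3.3 (empirical Bayes with trend, Benjamini-Hochberg, threshold 0.01). The fits were genotype alone, sex with genotype, and their interaction. Family sums were given no test. P-values measure the spread between these mice. Same-numbered mice deviated together (r = 0.367, 0.588 and 0.37 over genes for replicates 1 to 3). The replicate number was therefore used as a block in an alternative. Replicate 2 is the female pair, so that its r cannot be told apart from sex. Between males of different number and genotype r was 0.091 and 0.171. The labels do not say what the numbers mark. Other alternatives were sex as a covariate, another pseudocount and other minimum levels, median of ratios scaling, TPM rescaled without the members, limma without the trend, an adjusted p of 0.05, and each mouse left out.

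On simulated data with 200 of 14189 genes changed by 4 on the log2 scale, 180 were called between genotypes and 174 between sexes. The simulated spread was that left after genotype and sex were fitted, and no sex difference was put into the genotype comparison. For changes by 2 between sexes 91 were called, and for changes by 1, 0.

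The members and gene lists were chosen with earlier results of these data known. Named genes are the members, the highest other serpins, in each list the genes past the threshold and those with the largest rise and fall, and the genes most correlated with the sums and Serpina6. Some genes that meet this rule are not reported here. Gm8893, Gm10240 and the 4 Mup genes set beside Serpina1e were named after their values were seen. B430119L08Rik was named for its shared stretches.

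Positions and coding sequences are from GENCODE M21 (GRCm38), and promoters from RefSeq (GRCm38.p6). Coding sequences were aligned with MAFFT 7.526. Shared stretches of 31 bases were counted on both strands against all annotated transcripts.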

Additional observations from a re-analysis of the deposited data

Results flagged for a closer look

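In each of 59 values (members, sums, list genes and Surf4) the highest or lowest of the 4 male mice was compared with the others by Dixon's ratio of its gap to the whole range, at the usual 95% level. This marks about 1 in 20 groups by chance, and it marked 4 of these.

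Serpina1b was lowest in Alb-Cre+ replicate 3, at 5994 TPM against 6994 to 7043 TPM in the other males (ratio 0.954). Serpina3n was highest in Alb-Cre- replicate 3, at 674 TPM against 366 to 390.2 TPM (ratio 0.923).

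The other 2 were also in Alb-Cre- replicate 3. Saa2 was at 5172 TPM there, against 18.4 to 42.2 TPM (ratio 0.995), and Orm2, another acute phase gene, at 119.8 TPM against 16 to 32.9 TPM (ratio 0.837).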

How the results depend on the processing

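With genotype, 139 of 150 alternative values of the members kept their direction and their side of the threshold, and 115 of 120 did so with sex. The genotype difference reversed for Serpina1c without Alb-Cre- replicate 2 (-0.32), Alb-Cre+ replicate 1 (-0.23) or Alb-Cre+ replicate 3 (-0.10), for Serpina3k without the same mice (-0.38, -0.13 and -0.13), for Serpina1e without Alb-Cre- replicate 3 (0.41) or Alb-Cre+ replicate 2 (1.30), and for Serpina3n without Alb-Cre- replicate 3 (0.15), Alb-Cre+ replicate 1 (0.02) or Alb-Cre+ replicate 3 (0.03). The sex difference of Serpina3n reversed without Alb-Cre+ replicate 2 (0.35), and with median of ratios scaling those of Serpina3c (0.038) and Serpina3n (0.010) did. With 1 mouse left out, the genotype difference ran from -0.32 to 0.38 for Serpina1c, from -2.77 to 1.30 for Serpina1e, from -0.38 to 0.31 for Serpina3k and from -0.36 to 0.15 for Serpina3n, and the sex difference of Serpina3n from -0.76 to 0.35. The count of genes that differed by sex, 73, was 28 with no filter, 31 without the trend and 1019 at an adjusted p of 0.05. It ranged from 3 to 51 with 1 mouse left out, with 3 without either female mouse, 43 without Alb-Cre+ replicate 1 and 32 without Alb-Cre+ replicate 3. The genotype count of 0 ranged from 0 to 1, the 1 being Gm10240 without Alb-Cre+ replicate 1, where that gene was listed at 0. The replicate block changed no call. It moved the count at an unadjusted p under 0.05 from 250 to 666, and gave Serpina1e -0.80 with an SE of 0.13 and an adjusted p of 0.431 (limma). The cause of these changes was not tested. The difference in family sums ranged from -0.50 to 0.07 (Serpina1), from -0.33 to 0.21 (Serpina3) and from -0.46 to 0.10 (all 10) with 1 mouse left out.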
